A study of Mus musculus with 47 samples.

Results

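The steroid-metabolising reductases and hydroxylases followed here in mouse liver are the products of 10 genes: Akr1c18, Akr1c6, Akr1c14, Akr1c19, Akr1c20, Akr1d1, Srd5a1, Cyp17a1, Hsd3b5 and Hsd11b1. They are 10 of the 20320 genes in the count table, taken by gene symbol, and all 10 passed the filter on low counts that left 16650 genes. The genes were chosen with their levels by strain, sex and diet in these same libraries known. Their levels and differences are therefore given below as a description, with no p-value, and nothing is read from how many of them passed a threshold.

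The study compared the livers of 3 inbred strains, all labelled wild type (WT) with treatment None: C57BL/6J, CAST/EiJ and NZO/HlLtJ. C57BL/6J is the standard reference strain of mouse genetics. CAST/EiJ descends from wild mice, and mice of the NZO/HlLtJ strain become obese. Females and males of each strain ate from 6 weeks of age either the control diet, labelled 10% fat with fiber, or the high-fat, high-sugar diet, labelled 44% fat with fiber, and liver was taken at 15 weeks. Polyadenylated RNA was sequenced in 47 libraries, which make 12 groups of 4 libraries, except for CAST/EiJ males on 10% fat with 3. Whether each library came from a separate mouse is not stated in the sources used here, so p-values measure only the spread between these libraries.

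Steroid hormones are made mainly in the adrenal glands and gonads and are largely inactivated in the liver. Hepatic reductases saturate the A ring of the steroid and reduce its keto groups, and the products are conjugated and excreted, while a few hepatic enzymes reactivate hormones or make bile acids. Many of these liver genes are known to differ between female and male rodents under control of the pituitary pattern of growth hormone release.

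The libraries held 21609240 to 47780231 expected counts, with a median of 40008230. The summed level of 6 hepatocyte markers (Alb, Apoa1, Ttr, Serpina1a, Cyp2e1 and Tat) ranged from 43264 to 131980 CPM (expected counts per 1000000 of the library, with TMM scaling between libraries) over the libraries. Of 7 markers of adrenal or gonadal steroidogenic cells, 3 were measured (Star, Cyp21a1 and Hsd3b1), with a summed level of 0.653 to 14.04 CPM. The other 4 (Cyp11a1, Cyp11b1, Nr5a1 and Mc2r) were not among the 20320 genes in the count table. The pancreatic acinar marker Cpa1 was at 41.0 to 82.0 CPM in 5 libraries: C57BL/6J females on 44% fat replicates 1 and 2, C57BL/6J males on 10% fat replicates 2 and 3, and CAST/EiJ females on 44% fat replicate 2. The summed level of the 4 acinar markers measured was 0.298 to 348 CPM in C57BL/6J females on 44% fat and 0.0402 to 0.279 CPM in NZO/HlLtJ females on 10% fat. In bulk liver RNA, fewer cells of a type and less RNA per cell cannot be told apart.

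**Figure D1:**
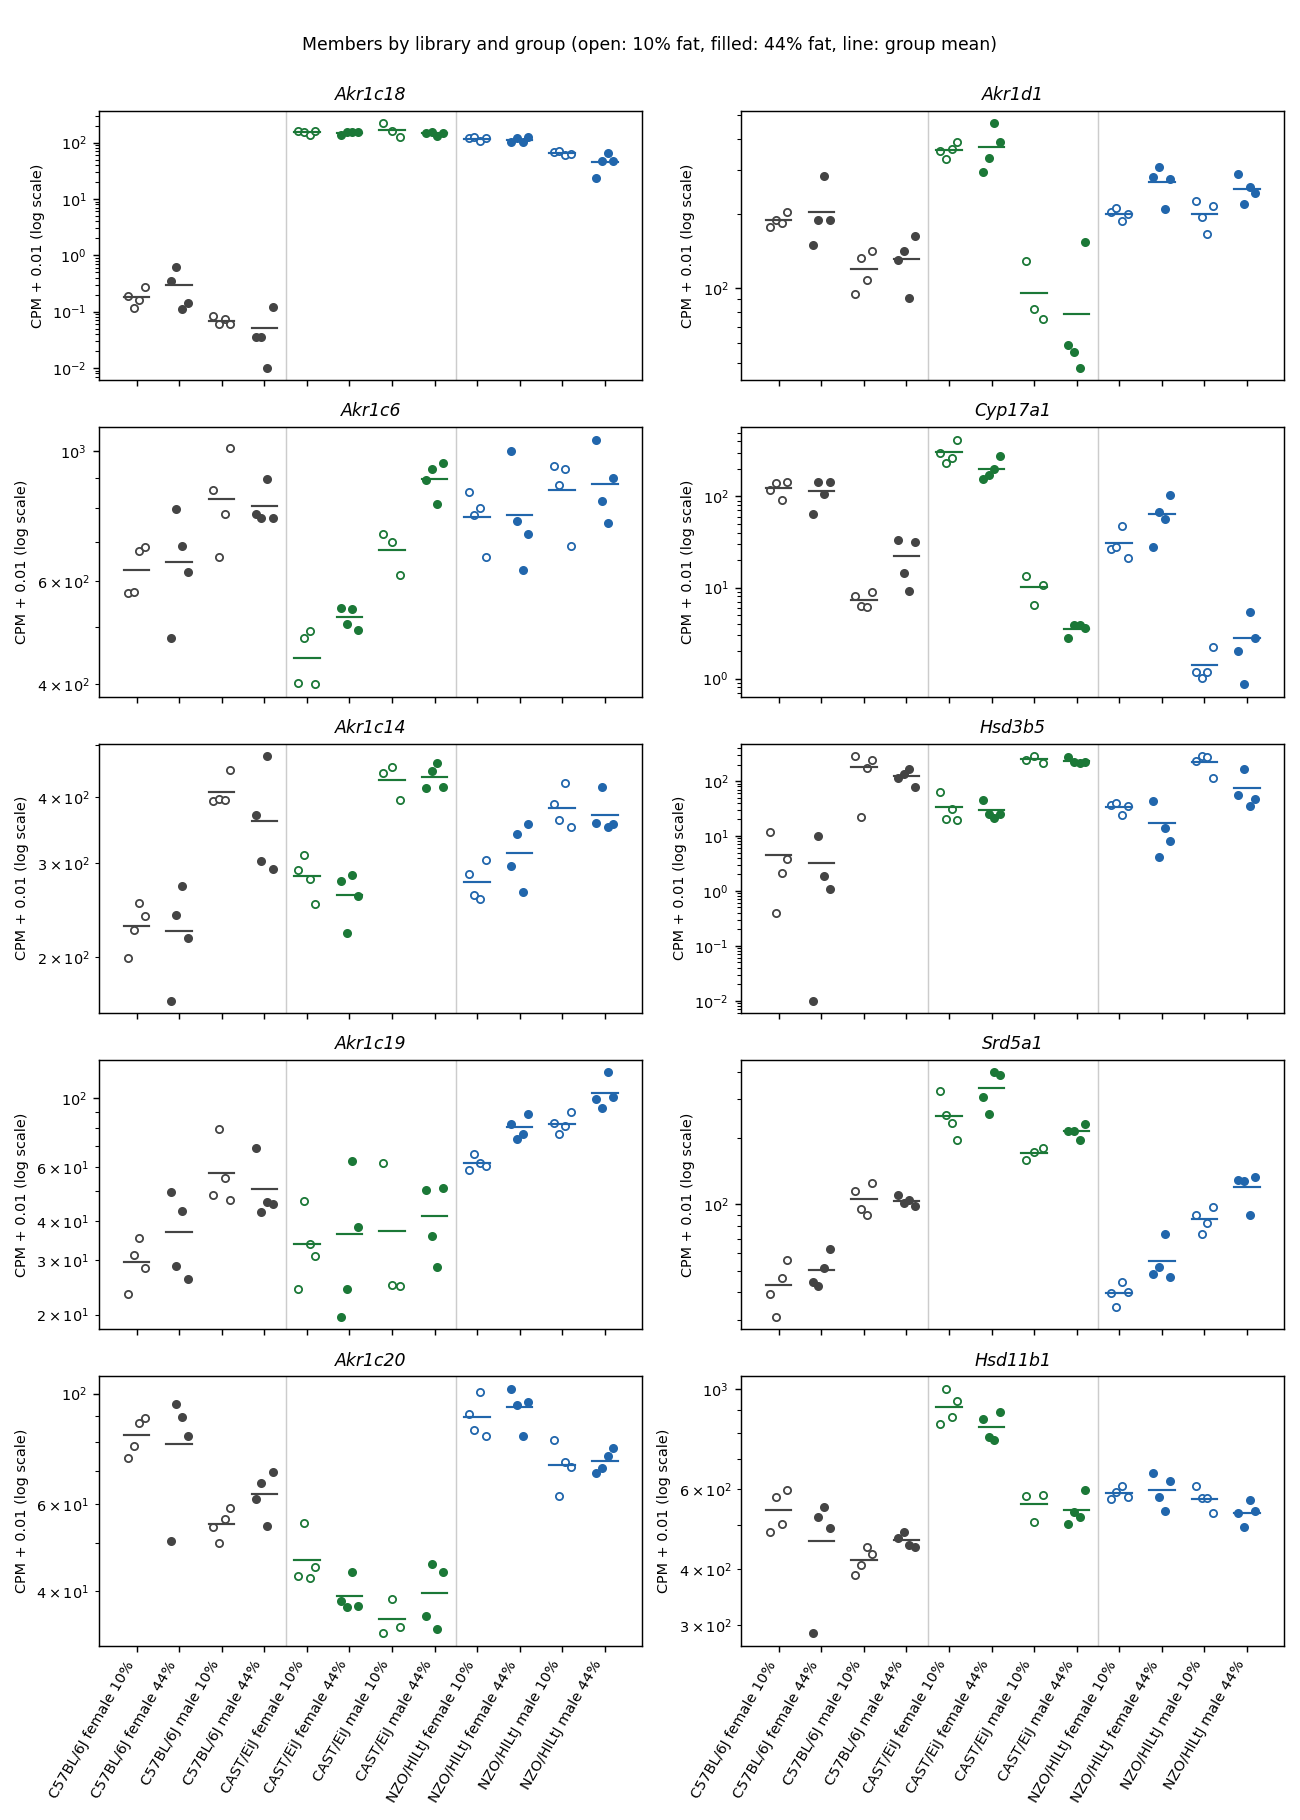
Level of each of the 10 genes in every library, as CPM plus 0.01 on a log axis (y), in the 12 groups of strain, sex and diet (x); open points are libraries on 10% fat, filled points libraries on 44% fat, and lines group means. Akr1c18 sits at 0 to 0.6 CPM in the C57BL/6J libraries and above 23 CPM in all others, and Cyp17a1 is lower in males than in females of each strain.

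5 of the genes belong to the aldo-keto reductase 1C family, whose enzymes use NADPH or NADH to reduce keto groups at several positions of the steroid. Their genes lie together on chromosome 13 of GRCm38, at 4049011-4090422 (Akr1c14, plus strand), 4132615-4150654 (Akr1c18, minus strand), 4228700-4248681 (Akr1c19, plus strand), 4434306-4457530 (Akr1c6, plus strand) and 4486972-4523344 (Akr1c20, minus strand). Such close copies can lend reads to one another, so their sequences are shown first. Each coding sequence is 969 bases long in the GENCODE M21 transcripts. Akr1c18 is identical to the other members at 74.6% (Akr1c19) to 76.7% (Akr1c6 and Akr1c20) of these bases, and Akr1c6 and Akr1c20 are identical to each other at 92.3%. The first 90 coding bases follow, with each base that differs from Akr1c18 in capitals.
Akr1c18: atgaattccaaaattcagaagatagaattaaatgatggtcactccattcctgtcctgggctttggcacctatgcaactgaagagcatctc
Akr1c6: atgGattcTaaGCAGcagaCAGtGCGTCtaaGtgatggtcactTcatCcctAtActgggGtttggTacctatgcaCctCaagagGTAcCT
Akr1c14: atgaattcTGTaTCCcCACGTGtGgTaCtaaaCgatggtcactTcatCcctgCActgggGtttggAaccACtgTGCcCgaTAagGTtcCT
Akr1c19: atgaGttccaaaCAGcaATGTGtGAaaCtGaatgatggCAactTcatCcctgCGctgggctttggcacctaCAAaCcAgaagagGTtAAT
Akr1c20: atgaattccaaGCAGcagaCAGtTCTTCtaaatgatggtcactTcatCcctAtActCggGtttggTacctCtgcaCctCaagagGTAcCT
Within these 90 bases, 27 (Akr1c20) to 34 (Akr1c14) bases differ from Akr1c18. No stretch of 100 bases, the read length, of the 5 transcripts occurs in a transcript of another gene in that annotation. How the authors aligned reads of CAST/EiJ and NZO/HlLtJ, and against which strain's sequence, is not given in the sources used here, and the part of sequence differences between strains in the values below was not tested.

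Akr1c18 codes for 20-alpha-hydroxysteroid dehydrogenase, which inactivates progesterone. In C57BL/6J females its CPM was 0.182, 0.105, 0.154 and 0.260 on 10% fat and 0.337, 0.600, 0.0994 and 0.135 on 44% fat. In C57BL/6J males it was 0.0746, 0.0513, 0.0627 and 0.0494 on 10% fat and 0.0248, 0.0248, 0 and 0.113 on 44% fat. These values rest on 0 to 24 expected counts a library, so the gene was close to the limit of detection in every C57BL/6J library. The 0.337 and 0.600 CPM in females on 44% fat came from replicates 1 and 2, which are among the libraries with acinar markers.

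In CAST/EiJ the CPM of Akr1c18 was 136 to 163 in females on 10% fat, 139 to 157 in females on 44% fat, 127 to 221 in males on 10% fat and 130 to 152 in males on 44% fat. In NZO/HlLtJ it was 107 to 124 and 101 to 127 in females on 10% and 44% fat, 59.3 to 72.1 in males on 10% fat, and 23.3, 48.0, 65.2 and 46.9 in males on 44% fat. No library of C57BL/6J overlapped any library of the other strains. Counts were also summed over libraries and scaled to library totals with no TMM factor. On this scale females of C57BL/6J held 79 counts, or 0.244 CPM (95% exact Poisson interval 0.194 to 0.305, counting error only). CAST/EiJ females were at 148 CPM and NZO/HlLtJ females at 116 CPM. The ratio to C57BL/6J was 603 (484 to 762) for CAST/EiJ and 476 (382 to 602) for NZO/HlLtJ. In males the C57BL/6J sum was 17 counts, or 0.0515 CPM (0.0300 to 0.0825), and the ratios were 2902 (1813 to 4982) and 1088 (680 to 1868). The C57BL/6J sums of both sexes include libraries with acinar markers. The ratios were not computed without them, and their intervals do not cover the spread between libraries.

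The fitted log2 difference of Akr1c18 was 10.45 ± 0.17 (SE) for CAST/EiJ against C57BL/6J and 9.49 ± 0.17 for NZO/HlLtJ against C57BL/6J, but fitted differences of a gene this low depend on how low counts are treated. On the deposited variance-stabilized values they were 6.41 and 5.46. Between the strains that express it, NZO/HlLtJ was lower than CAST/EiJ by a log2 difference of -0.96 ± 0.10. Females and males had about the same level in CAST/EiJ (log2 male minus female 0.05, 95% interval -0.25 to 0.34), while males were lower in NZO/HlLtJ (-1.07, -1.36 to -0.78) with no overlap between the sexes. The lowest NZO/HlLtJ value, 23.3 CPM, came from the library with the fewest counts of the series. In C57BL/6J the difference between sexes, -2.11 ± 0.45, rests on a few counts and was -1.45 without the 5 libraries with acinar markers.

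The reference promoter of Akr1c18 is shown because the strain whose sequence it gives is the one in which the gene was nearly silent. It is taken from RefSeq on GRCm38.p6, chromosome 13, 4150647-4150896, minus strand, the 250 bases before the start site, with the match to the searched motif in capitals.
Akr1c18: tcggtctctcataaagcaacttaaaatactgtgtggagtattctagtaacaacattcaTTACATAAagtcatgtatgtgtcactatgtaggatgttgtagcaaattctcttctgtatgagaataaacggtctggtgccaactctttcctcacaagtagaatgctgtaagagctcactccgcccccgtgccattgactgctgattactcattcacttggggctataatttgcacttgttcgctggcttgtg
The promoters of 8 of the 10 members were available (not Cyp17a1 or Akr1c20), each 300 bases from 250 before to 50 after the start site, and were searched on both strands for TTATGTAA (D-box), TTCNNNGAA (STAT) and AGGTCA (nuclear receptor half-site). TTATGTAA was found in Akr1c18 alone of the 8, on the opposite strand from base -192, and in 0.938% of 32851 promoters. TTCNNNGAA was found in Akr1c19 alone of the 8, from base -24, and in 8.30% of all. AGGTCA was found in Akr1d1, at bases -232 and -210, and in Akr1c18, at base 28 after the start, and in 16.3% of all. The RefSeq start sites did not always fall at the end of the gene spans printed in this report. The Hsd3b5 promoter (chromosome 3, 98645535-98645784) lay outside its gene span, and those of Akr1c14, Akr1c19 and Hsd11b1 lay within theirs. Other start sites were not searched. A match is a description of these letters and not a binding site, and the sequences of the other strains were not analysed here.

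Akr1c6, the mouse type 5 17-beta-hydroxysteroid dehydrogenase that interconverts weak and potent sex steroids, had the highest level per transcript length of the family, with group means of 318 to 643 CPM per kilobase. Its lowest group was CAST/EiJ females on 10% fat (402, 479, 493 and 399 CPM) and its highest CAST/EiJ males on 44% fat (891, 932, 812 and 954 CPM), and these groups did not overlap. Males were higher than females in CAST/EiJ by 0.70 ± 0.10 (log2) and in C57BL/6J by 0.36 ± 0.10, and the difference in NZO/HlLtJ was 0.17 ± 0.09. On 44% fat CAST/EiJ was higher by 0.32 (95% interval 0.12 to 0.52), short of the threshold, while the differences in C57BL/6J and NZO/HlLtJ were 0.00 and 0.02.

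Akr1c14, a 3-alpha-hydroxysteroid dehydrogenase that completes the reduction of the A ring, was higher in males of every strain. The log2 differences were 0.76 ± 0.09 in C57BL/6J, 0.67 ± 0.09 in CAST/EiJ and 0.35 ± 0.09 in NZO/HlLtJ. Female libraries lay at 165 to 272 CPM in C57BL/6J, 222 to 311 in CAST/EiJ and 257 to 355 in NZO/HlLtJ, and male libraries at 293 to 478, 395 to 464 and 351 to 425. The sexes overlapped only in NZO/HlLtJ, and diet differences stayed between -0.11 and 0.07 in the 3 strains.

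Akr1c20 and Akr1c19, relatives in the same cluster, had different strain orders. Akr1c20 was lowest in CAST/EiJ (32.9 to 54.8 CPM), below NZO/HlLtJ (62.2 to 102 CPM) with no overlap and lower than C57BL/6J (50.04 to 95.1 CPM) by a log2 difference of -0.79 ± 0.06. Females were higher than males for Akr1c20 in C57BL/6J (-0.46 ± 0.09, male minus female) and NZO/HlLtJ (-0.34 ± 0.09). Akr1c19 was highest in NZO/HlLtJ, at 58.6 to 121 CPM, against 23.4 to 79.3 in C57BL/6J and 19.6 to 62.8 in CAST/EiJ. The log2 difference of NZO/HlLtJ from C57BL/6J was 0.94 ± 0.14 and from CAST/EiJ 1.12 ± 0.14. Akr1c19 spread widely among CAST/EiJ females on 44% fat, at 19.6, 24.2, 62.8 and 38.5 CPM. Its diet difference in NZO/HlLtJ, 0.35, passed the threshold only with that strain fitted alone.

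**Figure D2:**
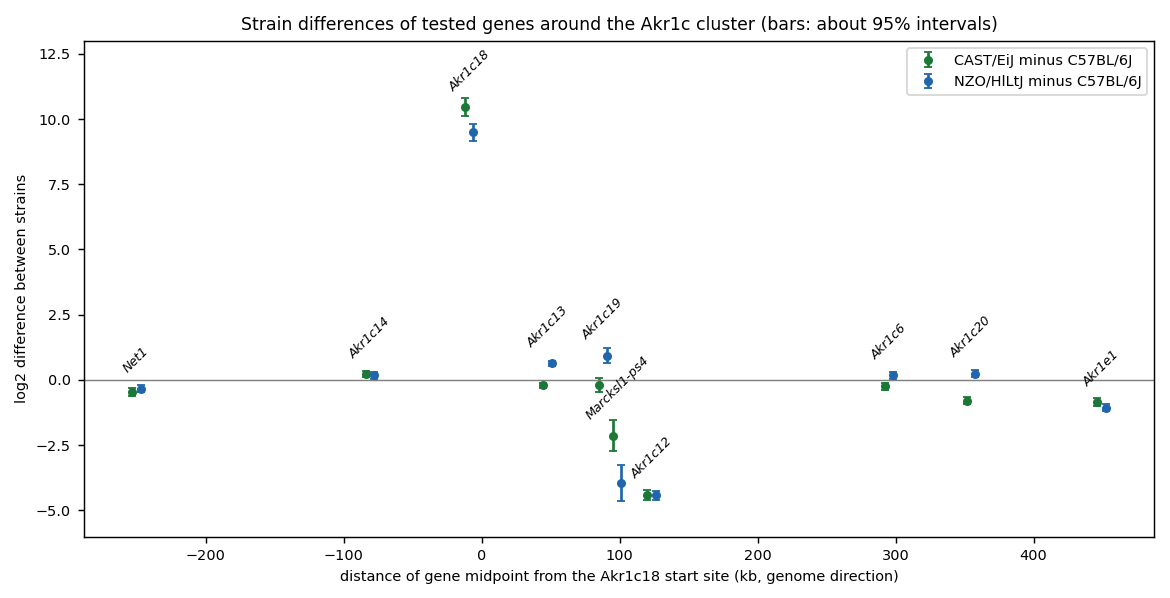
Log2 difference of CAST/EiJ and NZO/HlLtJ from C57BL/6J (y) for the tested genes around the Akr1c cluster, by distance of the gene's midpoint from the Akr1c18 start site in kilobases (x); bars are about 95% intervals. Akr1c18 stands at 10.45 and 9.49, Akr1c12 at -4.40 and -4.43, and the other Akr1c genes between -0.79 and 0.94.

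The opposite pattern was found 123 kb away in the same cluster, in a gene that is no member. Akr1c12 was at 41.7 to 77.8 CPM in C57BL/6J, 1.56 to 4.98 CPM in CAST/EiJ and 2.23 to 3.54 CPM in NZO/HlLtJ. It was lower by -4.40 ± 0.09 (log2) in CAST/EiJ (adjusted p = 5.49e-34, edgeR quasi-likelihood test, Benjamini-Hochberg) and by -4.43 ± 0.09 in NZO/HlLtJ (adjusted p = 3.45e-34). Akr1c13, its nearest copy with 96.2% of coding bases identical, differed less in the same comparisons and tests. It was lower in CAST/EiJ by -0.21 ± 0.05 (adjusted p = 0.000371) and higher in NZO/HlLtJ by 0.63 ± 0.05 (adjusted p = 1.94e-14). In the annotation, 11.5% of the 100-base stretches of Akr1c12 also occur in Akr1c13, so reads from these stretches cannot be told apart by sequence.

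Akr1d1 is the 5-beta-reductase that shapes the A ring of bile acids and of steroid hormones; it lies on chromosome 6 at 37530173-37568815, plus strand. Its CPM in CAST/EiJ females was 357, 331, 363 and 389 on 10% fat and 294, 334, 463 and 389 on 44% fat. In CAST/EiJ males it was 129, 82.6 and 75.1 on 10% fat and 58.9, 55.1, 47.6 and 154 on 44% fat. The sexes did not overlap, and the log2 difference was -2.07 (95% interval -2.44 to -1.70), or 4.21-fold. The summed hepatocyte markers, all 6 of them measured, were also lower in CAST/EiJ males: 52638 to 70401 CPM against 89259.5 to 113391 CPM in females on 10% fat, and 43264 to 58686 CPM against 74978 to 99222 CPM on 44% fat, without overlap. Zonal hepatocyte sums overlapped between the sexes on both diets. Pericentral markers (Glul, Oat, Cyp2e1, Cyp1a2, Slc1a2 and Lgr5) had medians of 6064 CPM in males against 8610 CPM in females on 10% fat. On 44% fat these medians were 8419 and 9171 CPM. Periportal markers (Sds, Hal, Cyp2f2, Gls2 and Pck1) had medians of 4348 against 5253 CPM on 10% fat and 5494 against 5241 CPM on 44% fat. The part of these markers in the sex differences of this strain was not tested. This holds for the members lower in males (Akr1d1, Srd5a1, Cyp17a1 and Hsd11b1) and for those higher in males (Akr1c6, Akr1c14 and Hsd3b5). In C57BL/6J females (150 to 284 CPM) were higher than males (91.1 to 162 CPM) by a smaller difference, -0.64 ± 0.17, with overlap. In NZO/HlLtJ the sexes covered the same range, 186 to 308 CPM in females and 165 to 289 CPM in males, with a difference of -0.05 (-0.38 to 0.29).

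The strain order of Akr1d1 therefore differed by sex. Among females CAST/EiJ was higher than C57BL/6J by 0.91 ± 0.17 (log2) and NZO/HlLtJ lower than CAST/EiJ by -0.66 ± 0.17. Among males CAST/EiJ was the lowest strain, lower than C57BL/6J by -0.53 ± 0.17, and NZO/HlLtJ was higher than CAST/EiJ by 1.37 ± 0.18. In NZO/HlLtJ the level on 44% fat was higher by 0.38 (0.05 to 0.72), short of the threshold over all genes, and past it with this strain fitted alone (0.38).

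Srd5a1 codes for 5-alpha-reductase type 1, which saturates the A ring in the other orientation and turns testosterone into dihydrotestosterone and clears glucocorticoids; it lies on chromosome 13 at 69573449-69611442, minus strand, far from the Akr1c cluster. In C57BL/6J females its CPM was 39.5, 30.9, 46.2 and 56.3 on 10% fat and 44.7, 42.7, 51.4 and 62.6 on 44% fat. In C57BL/6J males it was 115, 95.4, 89.2 and 126 on 10% fat and 111, 101, 105 and 98.9 on 44% fat. NZO/HlLtJ had similar values, with 34.1 to 73.5 CPM in females and 73.5 to 133 CPM in males. In C57BL/6J the sexes did not overlap, and in NZO/HlLtJ the ranges met at 73.5 CPM.

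CAST/EiJ had the reverse order for Srd5a1, with overlap between 196 and 231 CPM. Females were at 327, 253, 234 and 196 CPM on 10% fat and 308, 258, 398 and 387 CPM on 44% fat. Males were at 159, 173 and 180 CPM on 10% fat and 216, 215, 195 and 231 CPM on 44% fat. The log2 difference, male minus female, was -0.61 ± 0.12 in CAST/EiJ against 1.17 ± 0.12 in C57BL/6J and 1.12 ± 0.12 in NZO/HlLtJ. CAST/EiJ females were 6.26-fold higher than C57BL/6J females, and CAST/EiJ males 1.82-fold higher than C57BL/6J males. In the annotation 14.9% of the 100-base stretches of the Srd5a1 transcript also occur in the predicted gene Gm17108.

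With diet, the level of Srd5a1 in NZO/HlLtJ on 44% fat was higher by 0.48 ± 0.11 (log2), past the threshold of an adjusted p under 0.05 over all genes tested, with the same value of 0.48 in females and in males. On 10% fat the NZO/HlLtJ females were at 39.8, 34.1, 44.3 and 40.2 CPM and on 44% fat at 48.4, 52.0, 73.5 and 47.1 CPM, without overlap. The males were at 89.5, 73.5, 82.8 and 97.9 CPM and at 129, 127, 89.3 and 133 CPM, with overlap. In CAST/EiJ the difference was 0.37 (95% interval 0.13 to 0.62), short of the threshold, and in C57BL/6J 0.09 (-0.14 to 0.33).

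Cyp17a1 codes for the cytochrome P450 with 17-alpha-hydroxylase and 17,20-lyase activity that leads towards glucocorticoids and sex steroids in gonads and, in many species, the adrenal; it lies on chromosome 19 at 46667165-46672974, minus strand. It was the member with the largest sex difference after Hsd3b5 in C57BL/6J and the largest in the other strains. C57BL/6J females were at 117, 139, 90.5 and 142 CPM on 10% fat and 64.5, 143, 107 and 143 CPM on 44% fat, and males at 8.05, 6.21, 6.15 and 8.84 CPM and at 32.8, 14.4, 9.11 and 31.4 CPM. CAST/EiJ females were at 297, 230, 265 and 420 CPM on 10% fat and 154, 173, 198 and 278 CPM on 44% fat, and males at 13.2, 6.49 and 10.6 CPM and at 2.79, 3.90, 3.86 and 3.57 CPM. NZO/HlLtJ females were at 26.4, 28.1, 47.5 and 21.0 CPM on 10% fat and 28.0, 68.0, 56.5 and 105 CPM on 44% fat, and males at 1.19, 1.01, 1.16 and 2.20 CPM and at 1.98, 0.856, 5.34 and 2.82 CPM.

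Within each strain every female library was above every male library for Cyp17a1. The log2 difference, male minus female, was -3.22 ± 0.29 in C57BL/6J, -5.36 ± 0.35 in CAST/EiJ and -4.50 ± 0.32 in NZO/HlLtJ, or 9.33-, 41.2- and 22.6-fold. NZO/HlLtJ was lower than C57BL/6J in both sexes, by -1.41 ± 0.27 in females and -2.69 ± 0.31 in males. CAST/EiJ was higher than C57BL/6J in females, by 1.06 ± 0.27, and lower in males, by -1.08 ± 0.30, so that the strain difference over both sexes was -0.01. All 3 of the measured markers of adrenal or gonadal steroidogenic cells were low, and they moved in different directions. Star was at 0.404 to 1.96 CPM over all libraries. Hsd3b1 was lower in males, as Cyp17a1 was, with 0.0746 to 2.05 CPM in females and 0 to 0.0249 in males of C57BL/6J, 0 to 0.469 and 0 to 0.0919 in CAST/EiJ, and 0.173 to 11.96 and 0 to 0.0504 in NZO/HlLtJ. Cyp21a1 was higher in males, with 0 to 0.175 CPM in females and 0.0770 to 0.634 in males of C57BL/6J, 0 to 0.0520 and 0.148 to 0.818 in CAST/EiJ, and 0.348 to 1.18 and 2.33 to 8.76 in NZO/HlLtJ. Their part in the Cyp17a1 differences was not tested.

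The diet difference of Cyp17a1 had opposite signs in the strains. On 44% fat it was higher in NZO/HlLtJ by 1.04 (95% interval 0.42 to 1.65), past the threshold, and lower in CAST/EiJ by -1.06 (-1.64 to -0.47), short of it. The difference between these diet effects was 2.09 ± 0.42. The call in NZO/HlLtJ was lost in 13 of 56 alternative settings, 10 of which left out 1 NZO/HlLtJ library, with a log2 difference of 0.75 to 1.19 over all leave-outs. The call in CAST/EiJ was gained in 6 of 58, DESeq2 among them. In CAST/EiJ males the diets did not overlap, with 6.49 to 13.2 CPM on 10% fat and 2.79 to 3.90 CPM on 44% fat, while in NZO/HlLtJ the diets overlapped in both sexes. C57BL/6J males on 44% fat (9.11 to 32.8 CPM) were all above those on 10% fat (6.15 to 8.84 CPM), a difference of 1.59 (0.78 to 2.39), against -0.09 (-0.85 to 0.66) in females. In these males the summed adipocyte markers measured (Adipoq, Plin1 and Cfd) were also higher on 44% fat, at 1.51 to 12.02 CPM against 0.251 to 0.646 CPM. Replicates 2 and 3 on 10% fat were among the libraries with acinar markers. The part of these markers in the Cyp17a1 difference was not tested. Taken within the runs of consecutive library identifiers, the only sign of how the libraries were handled together, the CAST/EiJ difference was -1.60, -0.53 and -0.94, and the NZO/HlLtJ difference was 0.54 in the first run. In each of the other 2 runs every sex of NZO/HlLtJ was present on 1 diet only, so diet and sex cannot be told apart there.

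**Figure D3:**
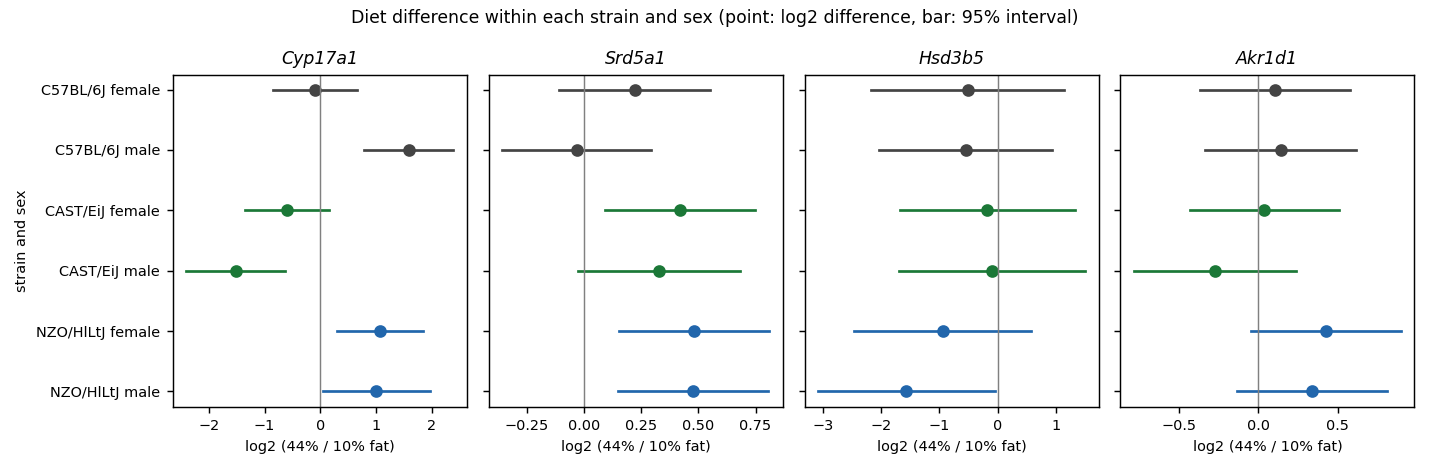
Diet difference, 44% fat against 10% fat, as log2 (x) within each strain and sex (y) for Cyp17a1, Srd5a1, Hsd3b5 and Akr1d1; points are fitted differences and bars 95% intervals. Cyp17a1 lies to the right of 0 in C57BL/6J males (1.59) and NZO/HlLtJ of both sexes (1.06 and 1.01) and to the left in CAST/EiJ males (-1.52), while Hsd3b5 is furthest left in NZO/HlLtJ males (-1.57).

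Hsd3b5 codes for a 3-ketosteroid reductase found in male mouse liver, a member of the 3-beta-hydroxysteroid dehydrogenase family, and lies on chromosome 3 at 98618634-98630252, minus strand. Females of C57BL/6J were at 11.997, 0.392, 2.09 and 3.74 CPM on 10% fat and 0, 10.0, 1.89 and 1.08 CPM on 44% fat, against 284, 22.3, 175 and 241 CPM and 114, 133, 169 and 77.8 CPM in males. CAST/EiJ females were at 19.5 to 62.1 CPM and males at 211 to 288 CPM. NZO/HlLtJ females were at 4.06 to 43.7 CPM. The log2 difference, male minus female, was 5.27 ± 0.63 in C57BL/6J, 2.94 ± 0.57 in CAST/EiJ and 2.44 ± 0.55 in NZO/HlLtJ. The strains differed mainly in females: CAST/EiJ was higher than C57BL/6J by 3.01 ± 0.58 and NZO/HlLtJ by 2.65 ± 0.58, against 0.69 (-0.40 to 1.78) and -0.18 (-1.23 to 0.87) in males. The C57BL/6J female at 0 was replicate 1 on 44% fat, the library with the highest Cpa1 level (82.0 CPM). That library also had the lowest Akr1c6, Akr1c14, Akr1c20, Akr1d1, Cyp17a1 and Hsd11b1 of the C57BL/6J females. Its TMM factor, 1.16, was the highest of the series. The summed pericentral markers of its group ranged from 2357 CPM, the lowest of all libraries, to 8639 CPM, with a median of 7215 CPM. The part of these markers and of the acinar markers was not tested. Without that library the sex difference of Hsd3b5 in C57BL/6J was 5.06. Leaving it out brought the sex difference of Hsd11b1 in C57BL/6J (-0.27) and of Akr1c20 in CAST/EiJ (-0.20) past the threshold. The strain difference of Akr1c6, NZO/HlLtJ against C57BL/6J, was 0.15 without it, against 0.19 with it, and no longer passed. That call was also lost without C57BL/6J male replicate 2 on 10% fat (0.16) or NZO/HlLtJ female replicate 1 on 44% fat (0.15). It was lost as well without the 5 libraries with acinar markers (0.13).

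NZO/HlLtJ males had 234, 283, 274 and 115 CPM of Hsd3b5 on 10% fat and 56.1, 168, 34.9 and 46.2 CPM on 44% fat. The difference over both sexes was -1.26 (95% interval -2.33 to -0.18), short of the threshold over all genes. It was past it without NZO/HlLtJ female replicate 1 on 44% fat (-1.75) and with limma on the deposited variance-stabilized values (-1.47). In this strain and sex the summed hepatocyte markers were also lower on 44% fat, at 59450.5 to 78324 CPM against 80386.5 to 101863 CPM. The zonal hepatocyte sums went the other way, with overlap between the diets. Periportal markers were at 4021 to 6202 CPM on 44% fat against 2655 to 4682 CPM on 10% fat. Pericentral markers were at 4839 to 6667 CPM against 4054 to 5829 CPM. The part of these markers in the result was not tested. In the annotation 7.79% of the 100-base stretches of Hsd3b5 also occur in Gm10681, Hsd3b4 or Gm4450.

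Hsd11b1 codes for 11-beta-hydroxysteroid dehydrogenase type 1, which regenerates active glucocorticoid from its inert keto form in the liver, and lies on chromosome 1 at 193221634-193264075, minus strand. It was among the most abundant members per transcript length, with group means of 309 to 675 CPM per kilobase. CAST/EiJ females were at 840, 1004, 870 and 943 CPM on 10% fat and 858, 784, 774 and 892 CPM on 44% fat, above every other library of the series. CAST/EiJ males were at 502 to 599 CPM, NZO/HlLtJ at 494 to 652 CPM and C57BL/6J at 288 to 598 CPM. The log2 difference, male minus female, was -0.67 ± 0.08 in CAST/EiJ, -0.18 ± 0.08 in C57BL/6J and -0.10 ± 0.08 in NZO/HlLtJ. The summed hepatocyte markers were lower in CAST/EiJ males as well, with medians of 57079 and 52187 CPM on 10% and 44% fat against 96413 and 75723 CPM in females. Sums of pericentral and periportal markers overlapped between these sexes on both diets. The part of these markers in the Hsd11b1 difference was not tested. Diet differences stayed between -0.10 and -0.04 in the 3 strains.

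**Figure D4:**
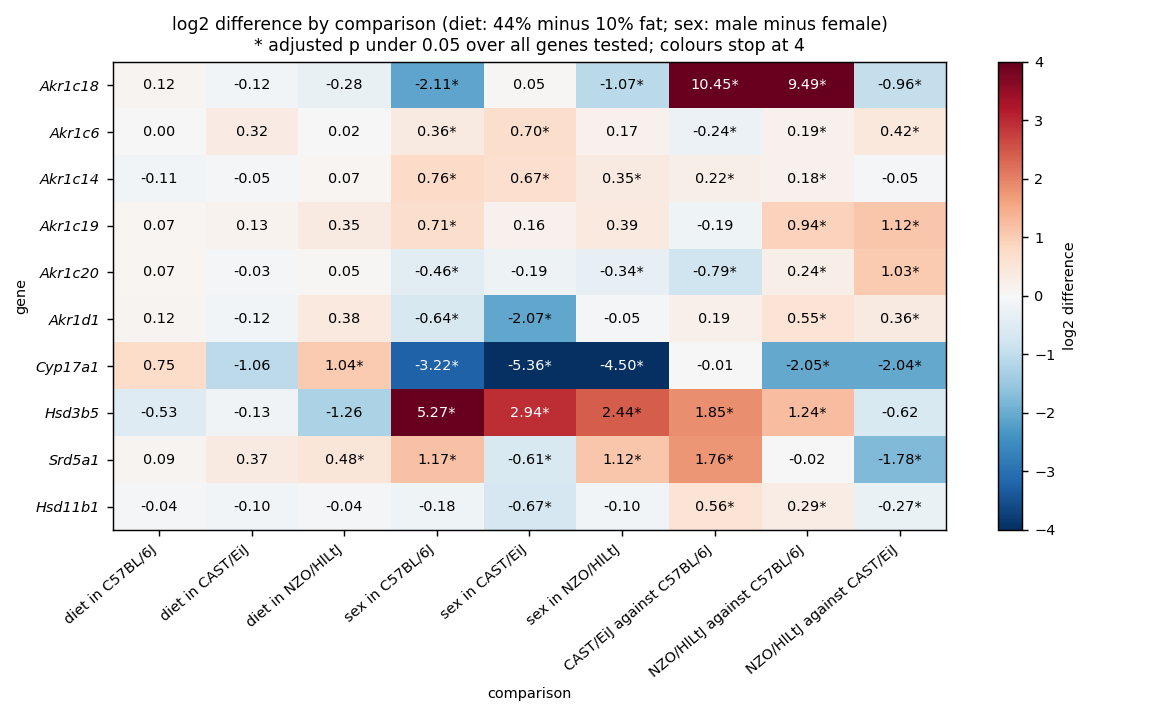
Log2 difference of each gene (rows) in the 9 comparisons of diet, sex and strain (columns); colours run from blue (lower) to red (higher) and stop at 4, and an asterisk marks an adjusted p under 0.05 over all genes tested. Most asterisks are in the sex and strain columns; the diet columns hold 2, for Cyp17a1 and Srd5a1 in NZO/HlLtJ.

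Set against all 16650 genes tested, and as a description only, the members past the threshold were as follows. On 44% fat against 10% fat, none passed in C57BL/6J or CAST/EiJ by edgeR, where 0.823% of all genes were higher and 0.168% lower in C57BL/6J and 0.498% and 0.396% in CAST/EiJ. At an unadjusted p under 0.05 by edgeR there were 1 and 3 members, against 2088 and 1966 of all 16650 genes. DESeq2 called no member in C57BL/6J, against 336 genes, and 1, Cyp17a1, in CAST/EiJ, against 325 genes. In NZO/HlLtJ 2 members were higher and none lower, where 3.5% of all genes were higher and 2.14% lower. Between males and females, 5 members were higher and 4 lower in C57BL/6J (8.1% and 8.7% of all genes), 3 higher and 4 lower in CAST/EiJ (16.1% and 14.2%), and 3 higher and 3 lower in NZO/HlLtJ (7.94% and 9.31%). Between strains, 5 were higher and 2 lower in CAST/EiJ than in C57BL/6J (32.6% and 35.3%), 8 higher and 1 lower in NZO/HlLtJ than in C57BL/6J (25.5% and 23.6%), and 4 higher and 4 lower in NZO/HlLtJ than in CAST/EiJ (35.3% and 32.8%). The sex difference itself differed between strains for 8 members, all except Akr1c19 and Akr1c20, and for 13.6% of all genes. The diet difference differed between strains for Cyp17a1 and for 0.048% of all genes, and the sexes differed in their diet response for no member and 0.108% of all genes. In that last test by edgeR 1 member and 934 of all 16650 genes had an unadjusted p under 0.05. DESeq2 called no member, against 38 genes. The call for Cyp17a1 in the test of diet between strains was lost in 19 of 54 alternative settings: with no filter on low counts, without the 5 libraries with acinar markers, and in 17 that left out 1 library (8 of CAST/EiJ, 8 of NZO/HlLtJ and 1 of C57BL/6J). In the test of sex between strains the call for Akr1c14 was lost in 15 of 54 settings, 14 of which left out 1 library, and those for the other 7 members in none.

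Genes that work beside the members were taken from 8 lists, and all their p-values are from the quasi-likelihood test of edgeR, adjusted by Benjamini-Hochberg over all genes tested; the median log2 difference of all genes lay between -0.02 and 0.01 in each comparison. Of 15 other hydroxysteroid dehydrogenases and 5-alpha-reductases tested, 6 were higher and 2 lower in C57BL/6J males than females (median 0.22), 4 and 1 in CAST/EiJ (median 0.05) and 3 and 2 in NZO/HlLtJ (median 0.14). Hsd3b2, a close relative of Hsd3b5, rose in CAST/EiJ males by 3.83 ± 0.25 (log2, adjusted p = 4.37e-15), from a mean of 4.58 CPM in females to 64.8 CPM in males. Hsd17b6, which oxidises 3-alpha- and 17-beta-hydroxysteroids, fell in males by -1.81 ± 0.22 in C57BL/6J (adjusted p = 9.30e-08) and by -1.42 ± 0.22 in NZO/HlLtJ (adjusted p = 1.04e-05) and was higher in CAST/EiJ males (238 against 138 CPM). Its sex difference differed between strains (adjusted p = 1.56e-07), with CAST/EiJ the exception, as for Srd5a1. Of the other 5-alpha-reductases, Srd5a3 fell in CAST/EiJ against C57BL/6J by -1.85 ± 0.09 (adjusted p = 8.14e-22), while Srd5a1 was higher there. Srd5a2 was at 0 in all 15 CAST/EiJ libraries and at 0.262 to 0.828 CPM in C57BL/6J.

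On 44% fat, Hsd17b4, the peroxisomal multifunctional enzyme of fatty acid and bile acid oxidation, rose in CAST/EiJ by 0.42 ± 0.07 (adjusted p = 0.000481) and in NZO/HlLtJ by 0.34 ± 0.06 (adjusted p = 0.000917). Hsd3b2 fell in NZO/HlLtJ by -0.79 ± 0.21 (adjusted p = 0.0203). Of these 15 genes, 1 passed in C57BL/6J (Hsd17b10, higher), 2 in CAST/EiJ (both higher) and 3 in NZO/HlLtJ (1 higher and 2 lower).

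Of 8 sterol and bile acid cytochromes P450 tested, 5 were higher and 1 lower in C57BL/6J males (median 0.77), 4 and 2 in CAST/EiJ (median 0.30) and 4 and none in NZO/HlLtJ (median 0.25). Cyp7b1, an oxysterol and steroid 7-alpha-hydroxylase, rose in males by 3.78 ± 0.33 in C57BL/6J (adjusted p = 3.63e-11) and by 2.38 ± 0.31 in NZO/HlLtJ (adjusted p = 4.04e-07). It was higher in CAST/EiJ than in C57BL/6J by 4.17 ± 0.24 (adjusted p = 8.70e-18). Cyp39a1, another oxysterol 7-alpha-hydroxylase, was nearly silent in NZO/HlLtJ, at 0.0805 to 0.459 CPM against 22.1 to 67.2 CPM in C57BL/6J, a fall of -7.17 ± 0.14 (adjusted p = 1.29e-33). In CAST/EiJ Cyp39a1 fell in males by -1.85 ± 0.14 (adjusted p = 2.51e-13) and Cyp46a1, the cholesterol 24-hydroxylase, by -3.10 ± 0.24 (adjusted p = 3.35e-13), the direction of Akr1d1, Srd5a1 and Hsd11b1 in that strain. Diet calls were 1 in each strain: Cyp39a1 lower in C57BL/6J, Cyp51 lower in CAST/EiJ and Cyp8b1 higher in NZO/HlLtJ.

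Of 12 steroid-hydroxylating drug cytochromes P450, 1 was higher and 8 lower in C57BL/6J males than females, 2 and 10 in CAST/EiJ and 2 and 6 in NZO/HlLtJ. The testosterone 16-alpha-hydroxylase Cyp2d9 rose in males by 5.16 ± 0.32 in C57BL/6J (adjusted p = 3.99e-15) and by 5.66 ± 0.33 in NZO/HlLtJ (adjusted p = 8.71e-16). Cyp3a25 was higher in CAST/EiJ than in C57BL/6J by 2.88 ± 0.08 (adjusted p = 4.11e-29). Several genes of this list and of the next were at or near 0 in one sex, so no median is given for either. On 44% fat in NZO/HlLtJ 1 gene passed, Cyp2b10, higher by 1.98 ± 0.58 (adjusted p = 0.0365).

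Of 14 steroid sulfotransferases and glucuronosyltransferases, 6 were higher and 6 lower in C57BL/6J males, 6 and 7 in CAST/EiJ, and 6 and 7 in NZO/HlLtJ. Ugt2b1 rose in C57BL/6J males by 1.39 ± 0.11 (adjusted p = 9.66e-13) and Ugt2b5 in CAST/EiJ males by 1.68 ± 0.08 (adjusted p = 9.20e-21). Sult1e1, the oestrogen sulfotransferase, rose on 44% fat in NZO/HlLtJ by 2.01 ± 0.38 (adjusted p = 0.000918), at levels of 0.194 to 8.52 CPM in that strain, and its level in the other strains stayed at or below 0.223 CPM.

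Of 7 redox partners, 4 were higher and 1 lower in C57BL/6J males, 1 and 2 in CAST/EiJ, and 4 and none in NZO/HlLtJ (medians 0.30, 0.08 and 0.29). H6pd, which supplies NADPH to Hsd11b1 in the endoplasmic reticulum, rose in males of C57BL/6J by 0.58 ± 0.08 (adjusted p = 1.54e-06) and NZO/HlLtJ by 0.47 ± 0.08 (adjusted p = 8.24e-05). Por, the electron donor of microsomal cytochromes P450 such as Cyp17a1, fell in CAST/EiJ males by -1.45 ± 0.22 (adjusted p = 2.14e-06) and was higher in CAST/EiJ than in C57BL/6J by 1.04 ± 0.15 (adjusted p = 9.07e-08). On 44% fat Por rose in CAST/EiJ by 0.83 ± 0.21 (adjusted p = 0.0484), where Cyp17a1 was lower.

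Of 8 steroid receptors and the carrier of glucocorticoids, 4 were lower and none higher in males of C57BL/6J, 6 in CAST/EiJ and 4 in NZO/HlLtJ (medians -0.48, -0.51 and -0.32). Esr1, the oestrogen receptor, fell in males by -1.80 ± 0.15 (adjusted p = 3.48e-12), -1.60 ± 0.16 (adjusted p = 1.08e-10) and -0.94 ± 0.14 (adjusted p = 6.54e-06) in the 3 strains. Of 10 glucocorticoid-responsive genes, 3 were lower in C57BL/6J males, 1 lower in CAST/EiJ males and 2 higher in NZO/HlLtJ males (medians -0.23, -0.11 and 0.60). Fkbp5 rose in CAST/EiJ against C57BL/6J by 1.21 ± 0.22 (adjusted p = 9.50e-06). For diet, edgeR called none of the receptors or glucocorticoid-responsive genes in any strain. At an unadjusted p under 0.05 there were 1, 1 and 1 of the receptors and 1, 0 and 2 of the responsive genes (strains in the order above). Of all 16650 genes, 2088, 1966 and 3193 had such a p by edgeR. DESeq2 called Nr1i2 in NZO/HlLtJ alone.

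The members did not vary as a block. The 47 libraries differ in strain, sex, diet and identifier run. Across them the highest correlation of log2 CPM between members was that of Akr1c14 and Hsd3b5 (Pearson 0.81, Spearman 0.82). The lowest was that of Akr1c20 and Srd5a1 (-0.83 and -0.82). After subtracting group means, Akr1c14 and Hsd3b5 were at 0.33 and 0.24 and Akr1c20 and Srd5a1 at 0.17 and 0.22. The highest value within groups was that of Akr1c20 and Hsd11b1 (0.71 and 0.51), whose correlation across levels was -0.21 and -0.05. Replicate 1 of C57BL/6J females on 44% fat was the lowest of its group in both genes. It had 50.5 CPM of Akr1c20 (group median 85.8) and 288 CPM of Hsd11b1 (group median 506). The part of this library in the correlation was not tested. These are descriptions over libraries that differ in depth and group.

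Among 10364 other named genes, those most like each member in level across the 47 libraries were Hddc3 (Pearson 0.98) and Tbc1d23 (0.97) for Akr1c18, Hsd3b3 (0.88) and Hsd3b2 (0.85) for Akr1c6, and Sult2a8 (0.86) and Elovl3 (0.86) for Akr1c14. They were Akr1c13 (0.89) and Fkbp8 (0.84) for Akr1c19, Sp140 (0.93) and Cpq (0.92) for Akr1c20, and Tcn2 (0.91) and Sqrdl (0.88) for Akr1d1. They were Fmo2 (0.89) and Serpinb8 (0.88) for Cyp17a1, Sult2a8 (0.93) and Mup7 (0.90) for Hsd3b5, Rab4a (0.90) and Acox2 (0.90) for Srd5a1, and Acy1 (0.87) and Cyp46a1 (0.87) for Hsd11b1. Akr1c14 and Hsd3b5 shared Sult2a8, a liver sulfotransferase. Within groups the leading genes were others. They were Rras (0.59) for Akr1c18, Cyp2c50 (0.81) for Akr1c6, Nadk2 (0.74) for Akr1c14, Lmo7 (0.78) for Akr1c19, Lect2 (0.86) for Akr1c20, Maob (0.81) for Akr1d1, As3mt (0.79) for Cyp17a1, Ces3b (0.83) for Hsd3b5, Jmjd4 (0.60) for Srd5a1 and Pon1 (0.79) for Hsd11b1.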

How the data were processed

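Liver RNA-seq of 47 libraries was analysed from the authors' deposited table of expected counts per gene, in which 20.3% of values were not whole numbers (tolerance 1e-06) and every one of the 20320 genes was detected in 24 or more libraries. The sources used here do not name the aligner, its version or the annotation; GRCm38 and DESeq2 are named, without versions, per the submitters' processing notes. The authors also deposited variance-stabilized values on a log2 scale, used here only as an alternative.

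Counts were rounded and tested with edgeR 4.0.16 in R 4.3.3 (TMM normalization, quasi-likelihood F-test, filter by expression over the 12 groups, 16650 genes kept, 35 residual degrees of freedom), with Benjamini-Hochberg adjustment over all genes tested and a threshold of 0.05. CPM is the rounded expected count scaled to the library total of the genes kept, adjusted by the TMM factor. The summed counts of Akr1c18 are the exception, scaled to the library total of all genes with no TMM factor. Log2 differences are fitted values with their SE. Correlations used log2 CPM with a prior count of 2. Depth was 21609240 to 47780231 counts, and intervals on summed counts cover counting error only. The code was tested on simulated data.

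Named genes were all 10 members, up to 3 called genes of each list with the smallest p in each comparison, and for each member the 2 genes most like it, by level and by deviation from group means. Beyond these, markers, Nr1i2 by diet, and libraries or pairs singled out were named after their values were seen. The members and lists were chosen with earlier results of these data known. Alternatives were DESeq2 1.42.0, RLE size factors, other filters, each strain alone, the run of consecutive library identifiers as a covariate or taken alone, limma 3.58.1 on the deposited log2 values, omission of the 5 libraries with acinar markers, and omission of each library in turn. Sequences came from GENCODE M21 transcripts and, for promoters, RefSeq on GRCm38.p6. The values of 1 gene of the receptor list are not reported here.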

Additional observations from a re-analysis of the deposited data

Results flagged for a closer look

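Of 110 groups of 4 libraries checked, 10 had a library far from the other 3, where chance alone marks about 1 group in 20. The highest library stood apart for Akr1c6 in C57BL/6J males on 44% fat (897 CPM, replicate 3) and for Akr1c14 in C57BL/6J males on 10% fat (449.967 CPM, replicate 4) and NZO/HlLtJ males on 44% fat (418 CPM, replicate 2). It also stood apart for Akr1c19 in C57BL/6J males on 44% fat (68.7 CPM, replicate 1), Akr1c20 in CAST/EiJ females on 44% fat (43.7 CPM, replicate 3) and Akr1d1 in CAST/EiJ males on 44% fat (154 CPM, replicate 4). The same held for Cyp17a1 in NZO/HlLtJ males on 10% fat (2.20 CPM, replicate 4) and for Hsd3b5 in CAST/EiJ females on 44% fat (45.6 CPM, replicate 1) and NZO/HlLtJ males on 44% fat (168 CPM, replicate 2). The lowest library stood apart for Srd5a1 in NZO/HlLtJ males on 44% fat (89.3 CPM, replicate 3).

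The difference between males and females itself differed between strains for 8 members, against 13.6% of the 16650 genes tested; the members were chosen with these values known, so this is a description only. On the log2 scale the strain pair shown for each gene differed by 2.15 ± 0.47 (SE) for Akr1c18 and by -2.14 ± 0.40 for Cyp17a1, both CAST/EiJ minus C57BL/6J, and by -1.78 ± 0.17 for Srd5a1 in the same pair. It differed by -0.53 ± 0.14 for Akr1c6, 2.03 ± 0.24 for Akr1d1 and 0.56 ± 0.11 for Hsd11b1 in NZO/HlLtJ minus CAST/EiJ. It differed by -0.42 ± 0.12 for Akr1c14 and -2.84 ± 0.77 for Hsd3b5 in NZO/HlLtJ minus C57BL/6J. The diet difference of Cyp17a1 differed by 2.09 ± 0.42 between NZO/HlLtJ and CAST/EiJ, and over the 3 strains the diet difference differed for 0.048% of all genes.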

How the results depend on the processing

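No paired analysis was possible because the labels give no replicate numbers that libraries of different groups share. No called value changed sign under the alternatives run. For diet in C57BL/6J 165 genes passed, against 336 with DESeq2, 4 with the strain fitted alone, 60, 65 and 0 within identifier runs 1, 2 and 3 (715 at an unadjusted p under 0.05 in run 3, edgeR), and 61 without the acinar libraries; of the members 0 passed, and 1 (Akr1c19) in run 1. For diet in CAST/EiJ 149 passed, against 325 with DESeq2, 99 with the run as covariate, 77 with the strain alone, and 2, 0 and 0 within runs (639 and 985 unadjusted in runs 2 and 3, edgeR); 1 member (Cyp17a1) passed with DESeq2 and with the strain alone. For diet in NZO/HlLtJ 939 passed, against 14 in run 1, where the members fell from 2 to 0. For sex, 2797 genes in C57BL/6J became 1083, 371 and 624 within runs and 9 members 3, 3 and 4; 5050 in CAST/EiJ became 849, 2458 and 778 and 7 members 4 in run 3; 2872 in NZO/HlLtJ became 1207 in run 1. Fewer libraries were fitted within a run. For strain by diet 8 genes became 154 with DESeq2, 19 with a filter of 1 CPM and 59 with limma, and 1 member became 0 with no filter and without the acinar libraries. For sex by diet 18 became 38 with DESeq2, 7 with the run as covariate, 3 without the acinar libraries and 2 with limma. The cause of these shifts was not tested.

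Leaving out each library in turn gave 56 to 369 genes for diet in C57BL/6J, 30 to 417 in CAST/EiJ (0 to 1 members) and 532 to 1178 in NZO/HlLtJ (1 to 3 members). For sex it gave 2274 to 2970 genes in C57BL/6J (9 to 10 members), 4220 to 5253 in CAST/EiJ (7 to 8) and 2390 to 3148 in NZO/HlLtJ (6 to 6). For strain it gave 11145 to 11352 for CAST/EiJ against C57BL/6J (7 to 8 members), 7926 to 8245 for NZO/HlLtJ against C57BL/6J (8 to 9) and 11157 to 11426 for NZO/HlLtJ against CAST/EiJ (8 to 9). It gave 1816 to 2533 for strain by sex (7 to 8), 6 to 72 for strain by diet (0 to 1) and 4 to 21 for sex by diet. The low counts of Akr1c18 in C57BL/6J limit its fitted differences in that strain.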
